A study of Mus musculus with 13 samples.

Results

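The T cell receptor and CD8 chain genes studied here were 10 of the 32285 genes in the deposited tables: the alpha, beta and delta constant genes Trac, Trbc1, Trbc2 and Trdc, the gamma constant genes Tcrg-C1, Tcrg-C2 and Tcrg-C4, the gamma variable segment Trgv2, and the CD8 coreceptor chains Cd8a and Cd8b1. They were chosen by symbol and read in T cell barcodes, defined as barcodes with at least 2 UMIs (unique molecular identifiers, each 1 counted RNA molecule) of Cd3d, Cd3e and Cd3g together. These are called CD3 barcodes below, and they numbered 12337 of 137591. The libraries were single-cell 3′ gene expression libraries of 10 colon tumors and 3 samples of adjacent mucosa from 3 mice. All mice were C57BL/6J, carried ApcMin/+; p16cis/cis (a heterozygous Apc mutation with a p16 epimutation on both alleles) and were on the supplemented diet, so that no library came from another genotype or diet. Mouse A, 24 weeks old, gave mucosa 2 and tumors 5 to 8. Mouse B, 23 weeks old, gave mucosa 3 and tumors 9 and 10. Mouse C, 20 weeks old, gave mucosa 1 and tumors 1 to 4. Mucosa was dissociated with EDTA and then TrypLE, and tumors with a tumor dissociation kit, so that the effect of tissue and that of dissociation cannot be told apart in any comparison. No cell sort was stated.

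A T cell carries either an alpha beta or a gamma delta receptor, each held at the surface by the CD3 chains. The intestinal epithelium holds many gamma delta T cells and many T cells with CD8 alpha homodimers, whereas conventional cytotoxic T cells carry the heterodimer of CD8 alpha and CD8 beta. The delta locus lies inside the alpha locus and is deleted when the alpha locus rearranges. RNA of a constant gene can also be made without a productive receptor, so its presence does not by itself prove a receptor chain.

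The CD3 barcodes held 1.92e+06 to 5.39e+06 UMIs per tumor and 3.47e+06 to 8.03e+06 per mucosa library. Their median depth was 3366 to 4676 UMIs in tumors but 3658, 1412 and 1872 UMIs in the 3 mucosa libraries, so mucosa 1 stood apart from the other mucosa libraries in depth. At least 1 UMI of 9 further T cell markers was found in 96.8 to 99.3% of CD3 barcodes in tumors and in 85.7 to 98.4% in mucosa. Single markers differed. Ptprcap was found in 60.6 to 72.2% in tumors and 55.6 to 86.8% in mucosa, and Lck in 45.0 to 63.3% and 38.4 to 69.5%. Cd28, Cd5 and Cd6 were each found in 29.9 to 46.6% in tumors but in 4.03 to 12.7% in mucosa. RNA of other cell types was also present. Levels are given as CPM, the UMIs of a gene scaled to the same total in every library or class of barcodes. The summed level of 6 epithelial markers in CD3 barcodes was 233 to 1221 CPM in tumors and 1857, 8278 and 8442 CPM in mucosa. That of 7 myeloid markers was 1145 to 7792 CPM in tumors and 1.54 to 39.5 CPM in mucosa, and that of 3 B and plasma cell markers was 396 to 7817 CPM against 32.0 to 551 CPM. That of 3 natural killer cell markers was 3.18 to 10.3 CPM in tumors and 18.2, 25.3 and 14.8 CPM in mucosa, with no overlap. All 6 epithelial markers were found in every mucosa library, whereas Csf1r and Csf3r were at 0 in mucosa 1 and 2. The part of this RNA in the results was tested only as far as barcodes with other-cell markers were left out. The sex labels, 7 female and 6 male, went against the data, since Xist was at most 0.129 CPM and Y-linked genes at least 104 CPM in all 13 libraries, and 2 animals carried both labels. Sex was therefore not used. Only 19 of 12318 CD3 barcode strings occurred in more than 1 library.

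CD3 barcodes took a smaller share of tumor barcodes at the depth sequenced. The CD3 share was 3.71 to 10.96% in tumors, with a median of 7.14%, and 21.6, 9.56 and 16.8% in mucosa 1, 2 and 3. It was below the share in the mucosa of the same mouse in 9 of 10 tumors, with tumor 8 the exception. The mean difference over mice was -8.44 percentage points (SD 5.73, 3 mice; exact two-sided permutation test within mice, p = 0.0267, adjusted p = 0.0373 over 7 tests), and -5.42 points without mucosa 1. The call was lost when barcodes were thinned to 1500 UMIs each (-7.52 points, exact permutation p = 0.04, adjusted p = 0.056). Thinning leaves out shallower barcodes, which were 2.69, 57.0 and 27.4% of CD3 barcodes in mucosa 1, 2 and 3 and 0.713 to 7.10% in tumors, so that thinned mucosa values describe the deeper barcodes. In mouse A the thinned CD3 share was 5.91% in mucosa 2 and 4.16, 5.43, 7.46 and 10.7% in tumors 5 to 8, so that 2 of 4 tumors lay above their mucosa. With 75 possible assignments the smallest p was 0.0133. Leaving out a mucosa library leaves 15 or 25 assignments and a smallest p of 0.0667 or 0.04, so those tests say nothing on stability. The call for the CD3 share was also lost without tumor 9 (-7.79 points) or tumor 10 (-9.09 points), with an adjusted p of 0.056 in both exact permutation tests.

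Within CD3 barcodes, the gamma constant genes, Trgv2 and Cd8a fell in tumors, and no member rose. All 10 members passed the filter on low counts, and edgeR called 5 lower and 0 higher at an adjusted p below 0.05. Calls were common in this comparison: 46.9% of the 12184 genes tested were called, 24.4% higher and 22.5% lower in tumors, and DESeq2 called 47.5%. The median log2 change was -0.92 over the members and 0.01 over all genes tested. In the same 5 genes every tumor lay below every mucosa library, which was so for 11.8% of all genes tested, while no member lay above mucosa in every tumor, which was so for 16.3%. These shares and the log2 changes of edgeR, unless another scaling is named, use library totals rescaled by TMM normalization. The CPM values use the plain totals. The members were chosen with earlier results of these data known, so their counts beside all genes are descriptions. A sum over barcodes cannot tell fewer cells of a type from less RNA per cell.

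**Figure D1:**
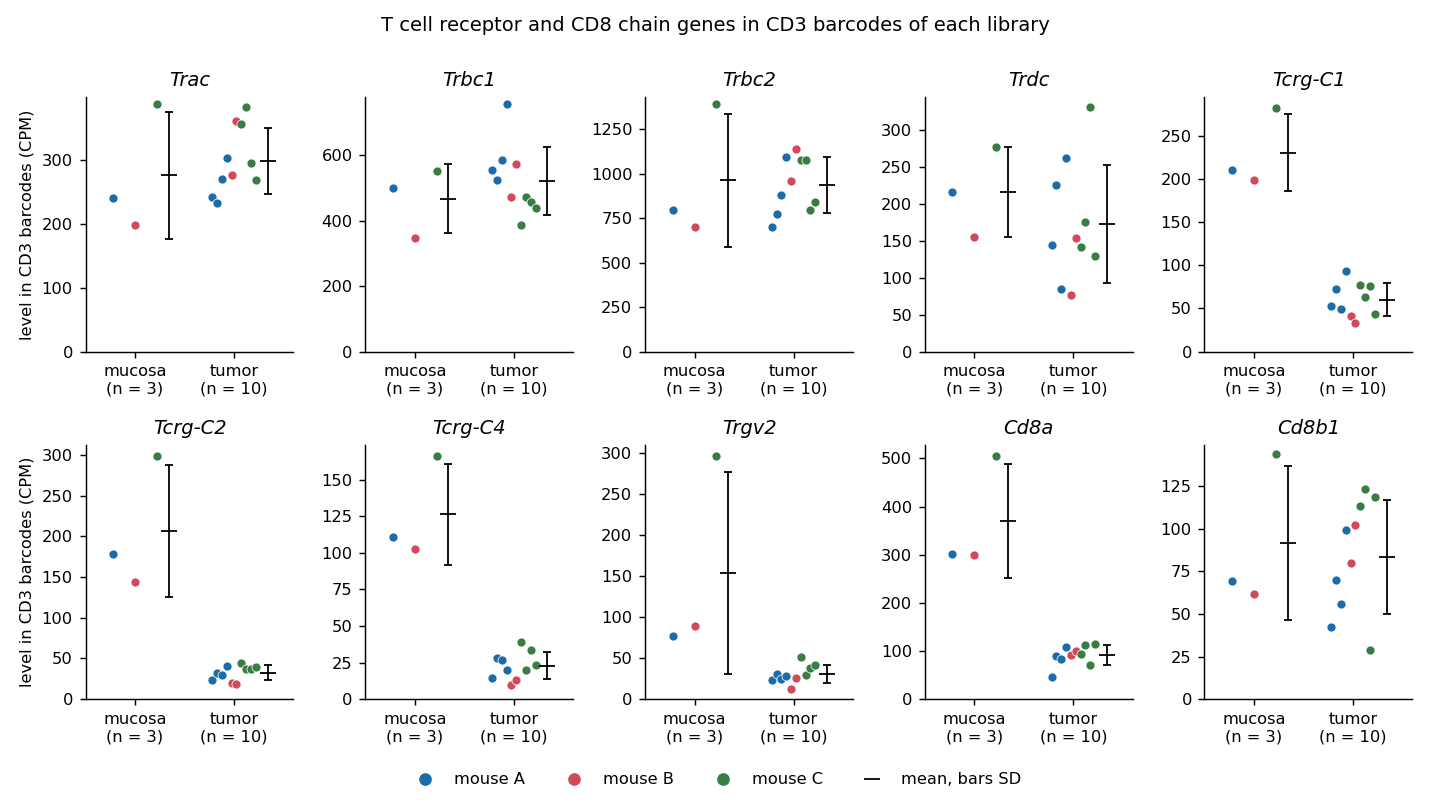
Level of each member gene in CD3 barcodes (CPM, linear axis from 0), 1 point per library, colored by mouse, with mean and SD beside the points of each group. Tcrg-C1, Tcrg-C2, Tcrg-C4, Trgv2 and Cd8a show 10 tumors below all 3 mucosa libraries, while the groups overlap for Trac, Trbc1, Trbc2, Trdc and Cd8b1.

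The alpha and beta constant genes were not called in the main edgeR fit. Because of the TMM rescaling, a log2 change can differ in sign from the CPM means. Mean levels in tumors and mucosa were 934 and 963 CPM for Trbc2 and 83.4 and 91.7 CPM for Cd8b1, with log2 changes of 0.17 and 0.09. Trac, which encodes the constant part of the alpha chain (chr14:54220521-54224206, plus strand, mm10), was at 232 to 383 CPM in tumors, with a median of 285, and at 387, 240.4 and 199 CPM in mucosa 1, 2 and 3. The tumors all lay inside the range of the mucosa libraries. Its log2 change was 0.33 (SE 0.23; edgeR adjusted p = 0.256). Trbc1 (chr6:41538218-41539881, plus strand), 1 of the pair of beta constant genes, was at 386 to 757 CPM, with a median of 499, against 551, 501 and 348 CPM in mucosa. The groups overlapped, with tumor 8 the highest library, and the log2 change was 0.38 (SE 0.19; edgeR adjusted p = 0.114). Trbc2 (chr6:41546730-41548352, plus strand), the other beta constant gene, was at 698 to 1140.2 CPM, with a median of 919, against 1390.0, 796 and 702 CPM. No tumor exceeded mucosa 1, and the log2 change was 0.17 (SE 0.24; edgeR adjusted p = 0.587).

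The calls for these 3 genes depended on mucosa 1. Without mucosa 1, edgeR called Trac (0.71, adjusted p = 0.0151), Trbc1 (0.56, adjusted p = 0.0383) and Trbc2 (0.59, adjusted p = 0.0373) higher in tumors, and 8 members in all. In that fit 3009 of the 12672 genes tested were higher and 3069 lower. Per 100 UMIs of Cd3d, Cd3e and Cd3g, Trac was 10.7 to 16.3 in tumors and 9.48, 9.89 and 8.09 in mucosa. Trbc2 was 35.6 to 51.4 on that scale in tumors and 34.0, 32.7 and 28.6 in mucosa, so that both ratios lay above all mucosa libraries in 10 of 10 tumors. Trbc1 was 14.3 to 30.5 against 13.5, 20.6 and 14.2, above all mucosa libraries in 8 of 10 tumors. The CD3 genes themselves, which chose the barcodes, were at a summed 2239 ± 324 CPM (SD, n = 10) in tumors and 2989 ± 948 CPM (SD, n = 3) in mucosa, and Cd3e lay below all mucosa libraries in 10 of 10 tumors at 211 against 370.3 CPM. The higher ratios therefore do not show a higher level of Trac or Trbc2. Scaling the libraries to the CD3 UMIs moved the median log2 change of all genes from 0.01 to 0.13 and the higher share of the called genes from 51.9 to 62.8%. On that scale the log2 changes were 0.55 for Trac (edgeR adjusted p = 0.0168), 0.56 for Trbc1 (0.0684) and 0.39 for Trbc2 (0.0626), and since the same UMIs chose the barcodes, these values support nothing.

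Trbc1 and Trbc2 are near copies in their coding part but not at the 3′ end, where these libraries are read. Their coding sequences were 95.6% identical, with 1 substitution in the 375 coding bases of exon 1, and the last 300 transcript bases 50.9% identical (GENCODE transcripts, mm10). The stretch of exon 1 that holds this substitution (bases 141 to 260 of its coding part) is shown to make the likeness visible, with the differing base in capitals:
Trbc1: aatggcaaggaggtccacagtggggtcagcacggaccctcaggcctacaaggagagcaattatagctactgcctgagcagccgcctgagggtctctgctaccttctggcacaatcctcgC
Trbc2: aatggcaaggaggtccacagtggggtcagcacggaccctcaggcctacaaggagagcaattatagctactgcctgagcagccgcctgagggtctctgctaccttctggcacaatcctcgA
They lie at chr6:41538358-41538477 and chr6:41546870-41546989 on the plus strand. The Trbc1 share of the UMIs of both genes was 26.4 to 44.3% in tumors, with a median of 35.3%, and 28.4, 38.6 and 33.1% in mucosa. The ranges overlapped, and the mean difference over mice of 2.11 points was not past the threshold (exact permutation p = 0.253, adjusted p = 0.253).

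The gamma constant genes, whose products join the delta chain in the gamma delta receptor, showed large differences. Tcrg-C1 (chr13:19214103-19217024, plus strand) was at 33.5 to 93.4 CPM in tumors, with a median of 57.9, and at 282, 210.4 and 199 CPM in mucosa 1, 2 and 3. The highest tumor, tumor 8, was below the lowest mucosa library. The log2 change was -1.72 (SE 0.24; edgeR adjusted p = 4.57e-05). Tcrg-C2 (chr13:19304649-19307551, minus strand) was at 18.1 to 44.3 CPM, with a median of 34.5, against 298, 178 and 143 CPM. It had the largest change of the 10 members, -2.46 (SE 0.26; edgeR adjusted p = 3.1e-06). Tcrg-C4 (chr13:19344558-19352756, plus strand) was at 9.75 to 38.8 CPM, with a median of 21.8, against 166, 111 and 103 CPM, a log2 change of -2.25 (SE 0.30; edgeR adjusted p = 2.31e-05). For all 3 genes the 2 tumors of mouse B, tumors 9 and 10, were the 2 lowest libraries.

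Trgv2 (chr13:19336573-19337167, minus strand), a variable segment of the gamma locus, was at 12.0 to 51.9 CPM in tumors, with a median of 28.6, and at 296, 77.4 and 89.0 CPM in mucosa 1, 2 and 3. Mucosa 1 was more than 200 CPM above the other mucosa libraries, and all tumors were below the lowest of them. The log2 change was -2.15 (SE 0.37; edgeR adjusted p = 0.000265), and -1.17 without mucosa 1 (edgeR adjusted p = 0.0072).

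Counts of Tcrg-C1 and Tcrg-C2 are uncertain between the 2 genes. Their coding sequences were 94.6% identical and their last 300 transcript bases 91.1% identical, with an unbroken identical run of 104 bases there, whereas Tcrg-C1 and Tcrg-C4 were 70.5% identical in coding sequence and 53.9% in the last 300 bases. The next coding exon, which encodes part of the connecting stretch before the membrane, also differs in length, with 45 bases in Tcrg-C1, 30 in Tcrg-C2 and 54 in Tcrg-C4, and Tcrg-C4 has a further one of 45 bases. How reads were assigned between them was not tested.

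Trdc (chr14:54142851-54148868, plus strand), the delta constant gene, was not called. It was at 76.5 to 332 CPM in tumors, with a median of 149, and at 277, 217 and 156 CPM in mucosa 1, 2 and 3. Tumor 3 exceeded every mucosa library and 6 tumors lay below all of them. The log2 change was -0.12 (SE 0.35; edgeR adjusted p = 0.804), and its sign turned without mucosa 1 (0.14), also not called. Over the 10 tumors, the genes whose log2 levels were most like that of Trdc were Lgals3 (Pearson r = 0.87, 0.80 without the 2 tumors farthest from the median of Trdc), Nudt4 (0.82 and 0.83), Sae1 (0.82 and 0.63), Ube2l3 (0.80 and 0.79) and Sprr2a3 (0.80 and 0.58), of 2572 genes compared. These are descriptions over libraries that share mice and other-cell RNA.

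The 2 CD8 chain genes went apart. Cd8a (chr6:71373427-71379173, plus strand), whose product is shared by both forms of CD8, was at 46.9 to 115 CPM in tumors, with a median of 92.5, and at 506, 302 and 299.7 CPM in mucosa 1, 2 and 3. Every tumor was below every mucosa library, and the log2 change was -1.79 (SE 0.23; edgeR adjusted p = 1.88e-05). Cd8b1 (chr6:71322788-71337494, plus strand), whose product occurs only in the heterodimer, was at 28.7 to 124 CPM in tumors, with a median of 89.6, and at 144, 69.7 and 61.7 CPM in mucosa. Tumors 3, 5 and 7 lay below all mucosa libraries and the other 7 inside their range. The log2 change was 0.09 (SE 0.40; edgeR adjusted p = 0.876), with a sign that turned without mucosa 2, mucosa 3, tumor 2 or tumor 4. Cd8b1 was most like Fam241a (r = 0.97, 0.88 without the 2 farthest tumors), Ms4a4b (0.93 and 0.79), the immunoproteasome subunit genes Psmb8 (0.93 and 0.83) and Psmb10 (0.92 and 0.98), and Kxd1 (0.91 and 0.73) over the 10 tumors.

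The ratio of Cd8b1 to Cd8a UMIs was accordingly higher in tumors. It was 0.404 to 1.22, with a median of 0.913, in tumors and 0.284, 0.230 and 0.206 in mucosa 1, 2 and 3. The lowest tumor, tumor 3, lay above the highest mucosa library. The mean difference over mice was 0.658 (SD 0.0732, 3 mice; higher in 10 of 10 tumors; exact permutation p = 0.0133, adjusted p = 0.0233), and the p is the smallest that the 75 assignments can give. The difference was 0.588 for mouse A, 0.734 for mouse B and 0.653 for mouse C. In barcodes thinned to 1500 UMIs the ratio was 0.5 to 1.45 in tumors and 0.194 to 0.316 in mucosa.

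**Figure D2:**
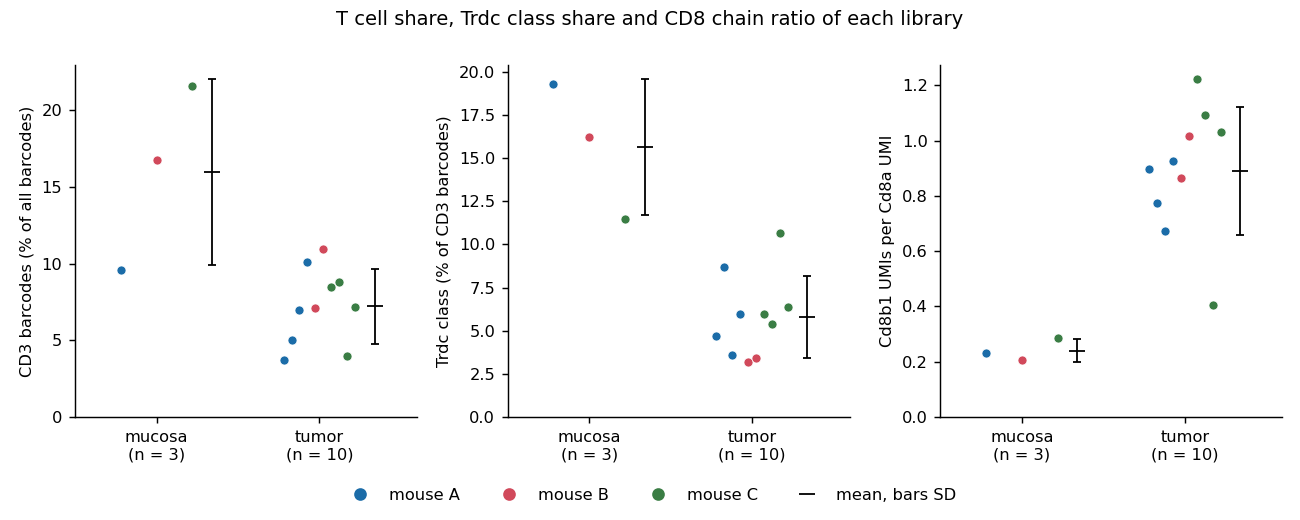
Share of barcodes that were CD3 barcodes, share of CD3 barcodes with a Trdc and no Trac UMI, and Cd8b1 UMIs per Cd8a UMI in CD3 barcodes (linear axes from 0), 1 point per library, colored by mouse, with mean and SD beside each group. The groups do not overlap for the Trdc class share (tumors at most 10.7%, mucosa at least 11.5%) or for the ratio.

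CD3 barcodes were next split by the 2 constant genes of the nested locus. Barcodes with a Trdc UMI and no Trac UMI formed the Trdc class, and those with a Trac UMI and no Trdc UMI the Trac class. The Trdc class took 3.16 to 10.7% of CD3 barcodes in tumors, with a median of 5.66%, and 11.5, 19.3 and 16.2% in mucosa 1, 2 and 3. All tumors were below all mucosa libraries, with tumor 3 the closest. The mean difference over mice was -10.3 points (SD 5.11, 3 mice; lower in 10 of 10 tumors; exact permutation p = 0.0133, adjusted p = 0.0233). After thinning to 1500 UMIs the shares were 2.98 to 12.7% in tumors and 15.4, 18.1 and 15.1% in mucosa, and the adjusted p was again 0.0233 in the exact test. The Trac class took 55.6 to 71.2% of CD3 barcodes in tumors and 53.7, 30.7 and 37.7% in mucosa. After thinning it took 33.2 to 46.5% and 36.9, 27.2 and 32.3%, with overlap and 4 of 10 tumors above all mucosa libraries. Barcodes with UMIs of both genes were 1.51 to 7.40% in tumors and 16.7, 6.54 and 9.85% in mucosa. Trac and Trdc define the classes, so their levels inside a class are no result.

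Cd8a was lower in tumors in both classes. In the Trdc class it was at 19.7 to 138 CPM in tumors, with a median of 66.2, and at 464, 256 and 203 CPM in mucosa 1, 2 and 3 (mean difference over mice -236 CPM, SD 136, lower in 10 of 10 tumors; exact permutation p = 0.0133, adjusted p = 0.0233). In the Trac class it was at 45.0 to 131 CPM, with a median of 105, against 482, 411 and 358 CPM (mean difference -317 CPM, SD 63.5, lower in 10 of 10 tumors; exact permutation p = 0.0133, adjusted p = 0.0233). The groups did not overlap in either class. In the Trdc class the Cd8a levels rest on 2 to 23 UMIs per tumor, against 192 to 321 per mucosa library. Cd8b1 in the Trac class was at 24.6 to 144 CPM in tumors and at 204, 133 and 92.2 CPM in mucosa, a difference of -47.9 CPM that did not pass (exact permutation p = 0.12, adjusted p = 0.14), and -24.0 CPM without mucosa 1 and -73.8 CPM without mucosa 3. Leaving out barcodes with more than 1 UMI of 5 other-cell markers gave -86.2 CPM for Cd8b1 (exact permutation p = 0.04, adjusted p = 0.0467).

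The mix of coreceptors in the Trac class was described without a test. Barcodes with Cd8a and no Cd8b1 were 3.42 to 11.3% of the class in tumors and 43.0, 42.1 and 44.7% in mucosa 1, 2 and 3. Barcodes with Cd4, the coreceptor of helper T cells, were 30.4 to 44.9% in tumors and 10.3, 3.62 and 5.40% in mucosa. Barcodes with both CD8 chains were 2.66 to 17.1% in tumors and 18.7, 9.50 and 10.3% in mucosa, with overlap. In the Trdc class, barcodes with Cd8a and no Cd8b1 were 4.35 to 19.4% in tumors and 56.8, 36.8 and 45.6% in mucosa. After thinning to 1500 UMIs, the share with Cd8a and no Cd8b1 was 3.47 to 10.6% in tumors against 33.3 to 40.7% in the Trac class, and 0 to 15% against 26.8 to 53.6% in the Trdc class. The thinned share with Cd4 was 11.5 to 24.1% in tumors and 5.92, 4.76 and 4.64% in mucosa, so that the ratio of the group means was 3.41 rather than 5.85. The thinned share with both CD8 chains was 0 to 7.93% in tumors and 7.89, 7.74 and 7.86% in mucosa, with 9 of 10 tumors below all mucosa libraries, against 3 of 10 before thinning.

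The gamma genes fell in the Trac class and fewer of them were called in the Trdc class, in fits of each class that were added after the data were seen. Median depth in the Trac class was 3505 to 5008 UMIs in tumors and 3876.5, 1472 and 1933 UMIs in mucosa 1, 2 and 3. A barcode with a Trac UMI whose Trdc RNA was missed would enter the Trac class. How many did so in each tissue was not tested. The class fits, the class ratios and the gamma levels by coreceptor were not repeated on thinned barcodes. In the Trac class edgeR called 5 of the 8 members that did not define the classes lower and 0 higher, where 37.3% of the 11374 genes tested were called and 17.6% were lower. Tcrg-C2 changed by -2.72 (SE 0.30; edgeR adjusted p = 8.85e-06), Tcrg-C4 by -2.70 (SE 0.39; 7.89e-05), Trgv2 by -2.42 (SE 0.37; 0.000138), Cd8a by -1.85 (SE 0.26; 7.18e-05) and Tcrg-C1 by -1.52 (SE 0.32; 0.00156). Tcrg-C4, for example, was at 6.03 to 34.5 CPM in tumors and at 137, 87.3 and 99.7 CPM in mucosa 1, 2 and 3, with no overlap. In the Trdc class 7 of the 8 passed the filter and 2 were called lower, where 29.3% of the 4528 genes tested were called and 14.2% were lower. These were Cd8a (-2.10, SE 0.32; edgeR adjusted p = 0.00014) and Tcrg-C2 (-1.20, SE 0.30; edgeR adjusted p = 0.00619), and without mucosa 1 Cd8a alone was called.

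In the Trdc class, Tcrg-C1 was at 167 to 574 CPM in tumors, with a median of 381, and at 694, 465 and 320.4 CPM in mucosa 1, 2 and 3. Tcrg-C4 was at 72.2 to 165 CPM, with a median of 123, against 212, 121 and 113 CPM. For both genes tumors overlapped mucosa, with log2 changes of -0.42 (SE 0.30; edgeR adjusted p = 0.324) and -0.29 (SE 0.23; edgeR adjusted p = 0.378). Without mucosa 1 that of Tcrg-C1 was -0.087 and that of Tcrg-C4 0.054, and without mucosa 3 they were -0.63 and -0.43. Trgv2 was at 29.5 to 120 CPM in tumors and at 348, 83.9 and 109 CPM in mucosa, a log2 change of -0.99 (SE 0.37; edgeR adjusted p = 0.0525). It was called with the mouse as a block (-0.95, edgeR adjusted p = 0.0141), with no filter on low counts (-0.999, edgeR adjusted p = 0.0312) and without mucosa 2 (-1.33), mucosa 3 (-1.23) or tumor 4 (-1.06), and was -0.11 without mucosa 1.

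The difference between the classes was tested as the log2 ratio of a gene's level in the Trac class over that in the Trdc class, with 1 CPM added to each. For Tcrg-C4 this ratio was -4.30 to -1.83 in tumors and -0.63, -0.47 and -0.17 in mucosa 1, 2 and 3, with no overlap (mean difference over mice -2.91; exact permutation p = 0.0133, adjusted p = 0.0267 over 4 tests). For Trgv2 it was -2.66 to -0.49 in tumors and -0.42 to 0.21 in mucosa, also with no overlap (-1.59; exact permutation p = 0.0133, adjusted p = 0.0267). The gap for Trgv2 was small, with tumor 8 at -0.487 and mucosa 3 at -0.417. The mean difference over mice was -1.70 for Tcrg-C2 (exact permutation p = 0.0267, adjusted p = 0.0356) and -1.43 for Tcrg-C1 (exact permutation p = 0.0533, adjusted p = 0.0533), with overlap of the groups for both. Counts behind the ratios were low in the Trdc class of tumors. Each tumor held 3 to 40 UMIs of Trgv2, 8 to 41 of Tcrg-C4, 6 to 44 of Tcrg-C2 and 25 to 168 of Tcrg-C1 there. A few UMIs can therefore move a ratio. The call for Tcrg-C2 was lost without tumor 2, 3, 5 or 6, at -1.62 to -1.58. That for Tcrg-C1 was gained without tumor 7 (-1.50, exact permutation p = 0.0333, adjusted p = 0.0333) and with labels permuted across mice (-1.36, exact permutation p = 0.049, adjusted p = 0.049), while its value was -0.87 without mucosa 3 and -1.94 without mucosa 2.

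**Figure D3:**
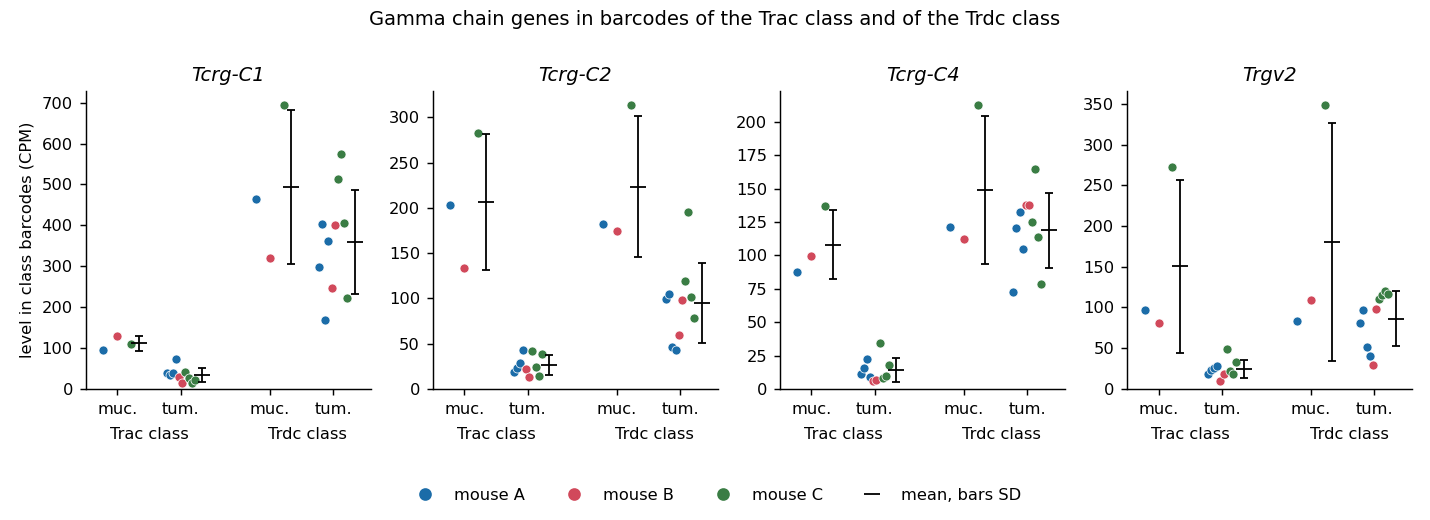
Level of the gamma chain genes in barcodes of the Trac class and of the Trdc class (CPM, linear axes from 0), 1 point per library, colored by mouse, with mean and SD beside each group (muc., mucosa, n = 3; tum., tumor, n = 10). In the Trac class all 10 tumors lie below all 3 mucosa libraries for each of the 4 genes, and in the Trdc class the groups overlap.

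Inside the Trac class, the gamma constant genes were read by coreceptor, in groups also chosen after the data were seen. In barcodes with Cd8a and neither Cd8b1 nor Cd4, their summed level was 84.7 to 307 CPM in tumors (300 barcodes) and 782, 552 and 465.7 CPM in mucosa 1, 2 and 3 (865 barcodes). In barcodes with Cd8b1 and no Cd4 it was 0 to 165 CPM against 309, 299.7 and 230.2 CPM, and in barcodes with none of the coreceptors 29.3 to 101 CPM against 411, 307 and 337 CPM. Each of these 3 groups was lower in 10 of 10 tumors with no overlap (mean differences -388, -202.2 and -296 CPM; exact permutation p = 0.0133 and adjusted p = 0.0178 for each, over 4 tests). In barcodes with Cd4 and no CD8 chain the level was 15.0 to 136 CPM in tumors and 72.4, 27.0 and 55.0 CPM in mucosa, a mean difference of 2.90 CPM (exact permutation p = 0.96, adjusted p = 0.96). The mucosa Cd4 group held 134 barcodes, with 24, 1 and 10 gamma constant UMIs in mucosa 1, 2 and 3, so the depth behind it was low. In epithelial barcodes without CD3 UMIs none of the 3 gamma constant genes exceeded 0.236 CPM in any library.

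**Figure D4:**
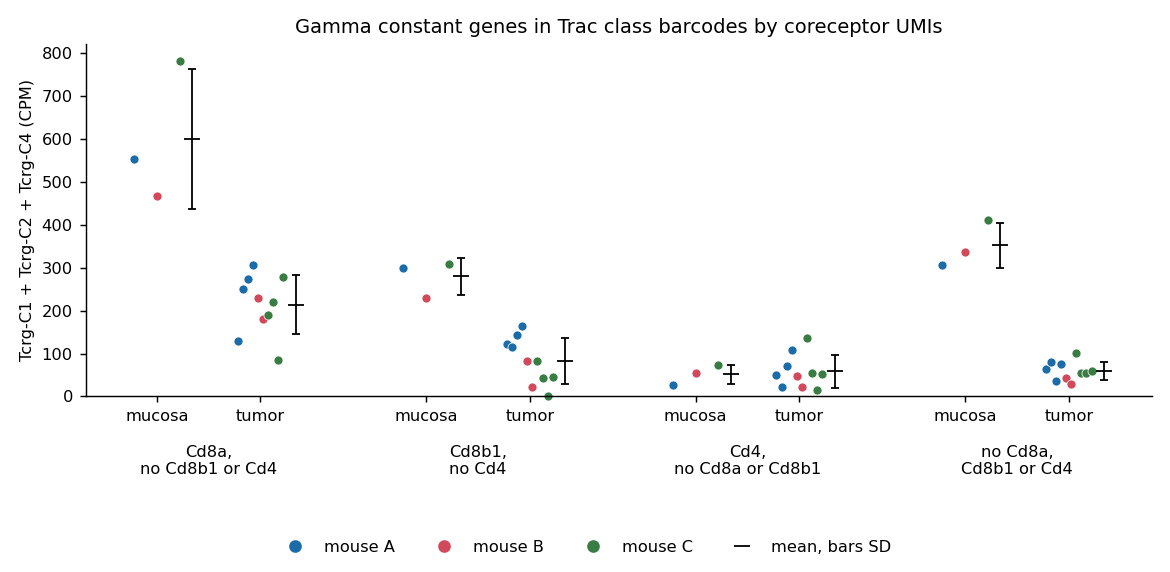
Summed level of Tcrg-C1, Tcrg-C2 and Tcrg-C4 (CPM, linear axis from 0) in Trac class barcodes split by the coreceptor genes with a UMI, 1 point per library, colored by mouse, with mean and SD beside each group (3 mucosa and 10 tumor libraries). Tumors lie below mucosa in all groups but the one with Cd4, where both are between 15.0 and 136 CPM.

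The variable segments gave a further view of the delta and gamma chains, although the 3′ libraries read them sparsely: of 256 segments 105 had a UMI in CD3 barcodes, and Trgv2 held 41.5% of their 10161 UMIs. The segments named here beside Trgv2 were chosen after their values were seen. Of the 15 segments that passed the filter, edgeR called 4 lower (Tcrg-V7, Tcrg-V1, Trgv2 and Tcrg-V4) and 1 higher (Trdv4), and 10 were not called. Over all genes tested in that fit 24.4% were higher and 22.5% lower, so these counts do not set the segments apart. Tcrg-V7, a gamma segment known from intestinal intraepithelial lymphocytes, was at 0.196 to 1.86 CPM in tumors and at 23.2, 12.1 and 19.8 CPM in mucosa 1, 2 and 3 (log2 change -4.44, SE 0.35; edgeR adjusted p = 3.29e-07). Tcrg-V1 changed by -3.21 (SE 0.41; edgeR adjusted p = 1.88e-05) and Tcrg-V4, with overlap, by -2.13 (SE 0.49; edgeR adjusted p = 0.00245). Tcrg-V7 and Tcrg-V1 each held 1 to 10 UMIs per tumor, against 42 to 159 and 28 to 94 per mucosa library. Both passed the filter through the mucosa libraries, so a call could only be lower in tumors and supports nothing by itself. Tcrg-V6 had a log2 change of 1.12 (SE 0.86; edgeR adjusted p = 0.304). Trdv4, a delta segment, went the other way, at 8.50 to 108 CPM in tumors, with a median of 46.8, and at 21.2, 3.45 and 3.36 CPM in mucosa. Its log2 change was 2.48 (SE 0.74; edgeR adjusted p = 0.0119), with mucosa 1 inside the tumor range. Per 100 Trdc UMIs, Trdv4 was 11.1 to 43.9 in tumors and 7.68, 1.59 and 2.16 in mucosa, without overlap.

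Inside the Trdc class, Trdv4 was at 127 to 1037 CPM in tumors, with a median of 573, and at 185, 14.7 and 14.6 CPM in mucosa 1, 2 and 3, with tumor 7 alone below mucosa 1. Its log2 change was 3.03 (SE 0.75; edgeR adjusted p = 0.00584), and 5.24 without mucosa 1. Trdv4 held 22 to 233 UMIs in this class per tumor and 128, 11 and 22 UMIs in mucosa 1, 2 and 3. It passed the filter through the tumors, so its call supports nothing by itself. Il17a, the gene of the cytokine interleukin 17A, was at 490.5 to 4477 CPM in the same barcodes of tumors and at 21.7, 10.7 and 0 CPM in mucosa. It rose with no overlap (log2 change 7.84, SE 1.06; edgeR adjusted p = 4.3e-05). Il17a held 85 to 1084 UMIs in this class per tumor and 15, 8 and 0 UMIs in mucosa 1, 2 and 3. It passed the filter through the tumors, so a call could only be higher, and the size of the change is uncertain. Il17a also rose in the Trac class, by 2.62 (SE 0.68; edgeR adjusted p = 0.00664). The Trdc class held 19 to 60 barcodes per tumor and 162 to 342 per mucosa library.

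**Figure D5:**
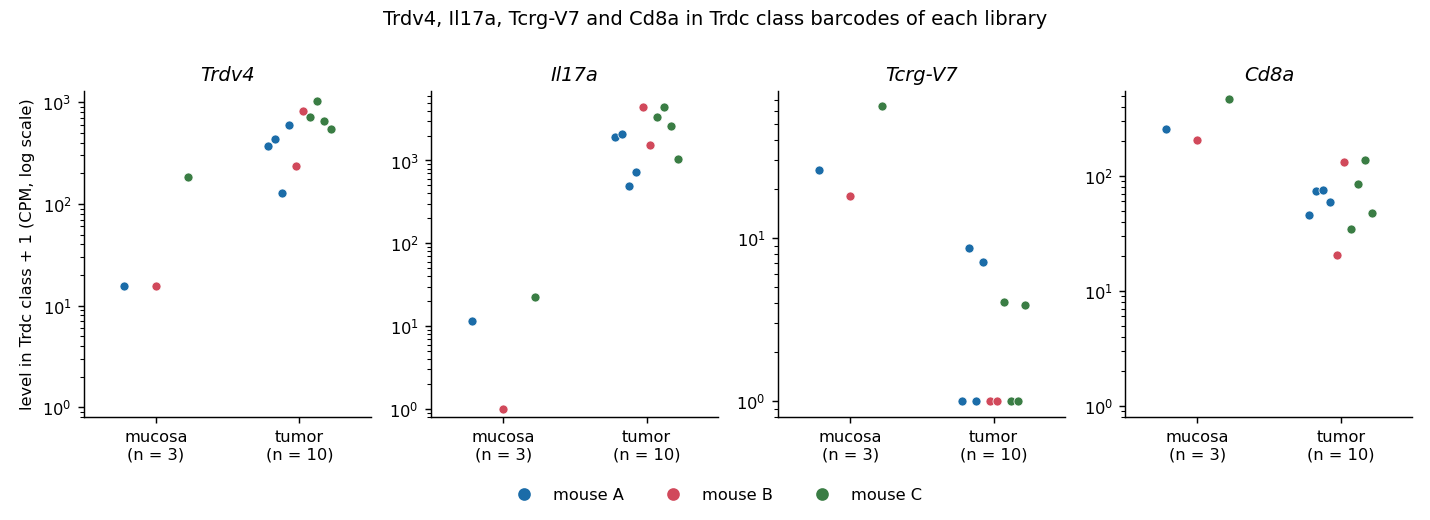
Level of Trdv4, Il17a, Tcrg-V7 and Cd8a in Trdc class barcodes (CPM plus 1, log axis), 1 point per library, colored by mouse. Il17a is above every mucosa library in all 10 tumors, Cd8a and Tcrg-V7 are below, and Trdv4 of mucosa 1 lies among the tumors.

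Beta transcripts were also present in the Trdc class. Trbc1 was at 99.3 to 817 CPM in tumors and at 467, 188 and 233 CPM in mucosa, and Trbc2 at 478 to 966 CPM against 861, 528 and 407 CPM. Neither was called (log2 changes 0.61 and 0.21; edgeR adjusted p = 0.283 and 0.581).

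Of the other genes of T cell receptor signaling, 33 were listed and tested: 15 were higher in tumors, 4 were lower and 14 were not called, with a median log2 change of 0.33 against 0.01 over all genes. Of all genes tested 24.4% were higher and 22.5% lower. Without overlap between the groups 10 of the 33 lay above mucosa and 1 below, against 16.3% and 11.8% of all genes. The list was chosen with earlier results of these data known, so these counts are descriptions and support nothing by themselves. The 6 named as higher, none with overlap between the groups, were the costimulatory receptors Icos (3.89, SE 0.28; edgeR adjusted p = 1.55e-07) and Cd28 (2.70, SE 0.27; 1.78e-06), the receptors Cd6 (2.30), Cd5 (2.27) and Cd2 (1.63), and the coreceptor Cd4 (2.96). Icos, for example, was at 333 ± 52.1 CPM (SD, n = 10) in tumors and 25.9 ± 10.7 CPM (SD, n = 3) in mucosa. Trat1, which encodes an adaptor that binds the receptor complex, was the lower gene without overlap (-0.79, SE 0.16; edgeR adjusted p = 0.00101).

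A further 30 genes were listed for gamma delta intraepithelial lymphocytes. They share Fcer1g with the first list, and not all of them are particular to these cells. Of the 30, 6 were higher, 15 lower and 9 not called, with a median log2 change of -0.81 against 0.01 over all genes. Of all genes, 24.4% were higher and 22.5% lower. Without overlap 5 of the 30 lay above mucosa and 12 below, against 16.3% and 11.8% of all genes. This list too was chosen with earlier results of these data known, so its counts are descriptions only. The summed natural killer cell markers and epithelial markers given above were lower in every tumor than in any mucosa library. The summed myeloid markers were higher in every tumor. The part of RNA from these other cells in the calls of this list was not tested. The 6 named as lower were Cd7 (-3.07, SE 0.26; edgeR adjusted p = 4.61e-07), Cd160 (-2.88, SE 0.23; 2.97e-07), Cd244a (-2.80), the chemokine gene Ccl5 (-2.65), the killer cell lectin-like receptor gene Klre1 (-1.87) and Gpr18 (-1.60). Cd160 was at 56.7 ± 18.3 CPM (SD, n = 10) in tumors and 485 ± 115 CPM (SD, n = 3) in mucosa. Named as higher were Themis2 (2.72), the ectoenzyme genes Entpd1 (2.66) and Nt5e (1.48), the cytokine receptor gene Il2rb (1.52) and the activation marker Cd69 (1.03). Themis2, at a mean of 1.67 CPM in mucosa, passed the filter on low counts through the tumors. A call for it could only be higher and supports nothing by itself, and the counts above include it. The T cell subset markers Foxp3 and Il17a were also above mucosa in all tumors, Foxp3 at 9.82 to 48.5 CPM against 1.49 to 2.02 CPM and Il17a at 67.0 to 567 CPM against 15.3 to 31.4 CPM.

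Members were also read outside CD3 barcodes. In epithelial barcodes without CD3 UMIs, Trdc, the gamma constant genes, Cd8a and Cd8b1 had means of at most 0.363 CPM in either tissue. In barcodes with natural killer cell markers and no CD3 UMI, counted in the 6 tumors and 2 mucosa libraries with at least 20 of them, Trbc1 was at 428 ± 100.4 CPM (SD, n = 6) in tumors and 522 ± 23.6 CPM (SD, n = 2) in mucosa. Tcrg-C4 was at 68.1 ± 36.4 CPM there in tumors and 193 ± 22.9 CPM in mucosa, while Trac was at 23.1 and 7.12 CPM and Cd8b1 at 0 in both. Trbc2 was at 264 ± 74.0 CPM in tumors and 326 ± 56.4 CPM in mucosa. The delta segment Trdv4 was at 20.7 ± 17.4 CPM in tumors and 33.1 ± 23.0 CPM in mucosa. Its mean in CD3 barcodes was higher in tumors, at 47.9 CPM, and lower in mucosa, at 9.35 CPM. RNA of Trbc1, Trbc2, Tcrg-C4 and Trdv4 was thus present in barcodes without a CD3 UMI. In type 1 dendritic cell barcodes of tumors, Cd8a was at 7.26 ± 4.57 CPM (SD, n = 8), with a UMI in 8.63% of 336 barcodes at a median depth of 13334 UMIs.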

How the data were processed

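Counts were UMIs per gene and barcode in the matrices deposited by the authors, 1 per library, with no normalization. The submitters' processing notes name Cell Ranger 6.0.0 and mm10; whether strand was used in counting is not given in the sources used here. Filters on genes per barcode, mitochondrial share and doublets were tried only as alternatives, so doublets were kept. The members and lists were chosen with earlier results of these data known.

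UMIs were summed per library over CD3 barcodes and tested with edgeR 4.0.16 (R 4.3.3; quasi-likelihood, TMM, filterByExpr, Benjamini-Hochberg over all genes tested, threshold 0.05), tumor against mucosa, after a test on simulated data. DESeq2 1.42.0 was an alternative. Single values per library were compared with exact two-sided permutation tests within mice (the mucosa label permuted among the libraries of each mouse; Python 3.11.15). All members were named; of each list, the 6 genes per direction with the lowest adjusted p among those called without overlap between groups; for likeness, the 5 most correlated genes, at a mean of at least 50 CPM. Replicates are libraries of 3 mice, and tumors of 1 mouse share that mouse. The mouse codes in the sample titles pair tumors with mucosa. Deviations of tumor means and mucosa from the group means correlated at 0.38, -0.24 and 0.16 in mice A, B and C over 2581 genes. Sequences were read from GENCODE transcripts of mm10. Sequence of the gamma constant genes is not reported here. Thinning and intervals cover counting error only.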

Additional observations from a re-analysis of the deposited data

Results flagged for a closer look

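The sign of the tumor against mucosa difference in CD3 barcodes varied between mice for 4 members, in every tumor of the mice named, and the difference between mice was not tested. Trac had a log2 ratio of mean tumor level over mucosa of 0.68 in mouse B (2 of 2 tumors above) and -0.25 in mouse C (4 of 4 below). For Trbc1 it was 0.27 in mouse A (4 of 4 above), 0.59 in mouse B (2 of 2 above) and -0.33 in mouse C (4 of 4 below). Trbc2 was at 0.58 in mouse B and -0.55 in mouse C, and Cd8b1 at 0.56 in mouse B and -0.58 in mouse C. Each mouse had 1 mucosa library, and that of mouse C was the deepest per CD3 barcode.

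Epithelial barcodes of tumors without CD3 UMIs held more RNA of 2 members, Trac and Trbc1, than those of mucosa. The levels of these 2 members in such barcodes were not given above. Trac was at 7.68 CPM on average in the 10 tumors, the lowest at 2.37, and at 0.43 CPM in the 3 mucosa libraries. Trbc1 was at 4.89 CPM, the lowest at 1.21, and at 0.36 CPM in mucosa. A Trac UMI was found in 5.71% of 9911 tumor barcodes at a median depth of 6555 UMIs and in 0.556% of 15121 mucosa barcodes at 10595 UMIs. Trbc2 was at 1.01 and 0.663 CPM in the same barcodes.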

How the results depend on the processing

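The 5 member calls kept their direction and side of the threshold under every alternative run, including DESeq2, other scalings, other CD3 minimums, filters on barcodes and each left-out library, except that DESeq2 gave no adjusted p for Trgv2 and so called 4. The count of called members was 5 to 8 without single libraries (8 without mucosa 1). The count of all genes called was 4191 to 6078 in those fits, and without mucosa 1 it was 3009 higher and 3069 lower of 12672 tested. Members that were not called changed sign: Trdc on the CD3 scale (0.072, where the median of all genes moved to 0.13) and without mucosa 1 (0.14; range without single libraries -0.34 to 0.14); Trbc2 without barcodes holding other-cell markers (-0.11), without mucosa 2 (-0.0027) and without mucosa 3 (-0.044; range -0.044 to 0.59); and Cd8b1 without other-cell markers (-0.19), without mucosa 2 (-0.12), mucosa 3 (-0.16), tumor 2 (-0.033) or tumor 4 (-0.0063; range -0.16 to 0.64). With the mouse as a replicate block, 5746 genes and the same number of members, 5, were called, and no member call of CD3 barcodes changed.

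Without a mucosa library 15 or 25 assignments remain, with a smallest p of 0.0667 or 0.04. With 15 no test within mice could pass, and with 25 none did after adjustment, so a lost call there says nothing on stability. Without single libraries the CD3 share differed by -11.1 to -5.42 points, the Trdc class share by -13.2 to -8.65 points, the Cd8b1 to Cd8a ratio by 0.620 to 0.717, and Cd8a by -290.5 to -160 CPM in the Trdc class and by -348 to -285 CPM in the Trac class. The CD3 share was -7.52 points when thinned after selection and -7.63 when thinned before, neither called. Without other-cell markers Cd8b1 in the Trac class was called at -86.2 CPM. In the class fits added after seeing the data, 1 to 3 members of the Trdc class were called without single libraries. Uncalled members turned sign in the Trac class, Trbc2 (range -0.35 to 0.21) and Cd8b1 (-0.67 to 0.051) without mucosa 1, and Trbc1 (-0.087 to 0.19) without mucosa 3 or tumor 8 (-0.0015), as did Tcrg-C4 in the Trdc class (-0.43 to 0.054) without mucosa 1. The summed gamma level in Cd4 barcodes turned to -13.7 CPM without mucosa 2, -5.00 without tumor 1, -2.005 without tumor 8 and -1.20 without tumor 9 (range -13.7 to 14.2). The class ratio of Tcrg-C1 was called with no replicate block (-1.36) and without tumor 7 (-1.50), and that of Tcrg-C2 was not called without tumor 2, 3, 5 or 6 (-1.62 to -1.58). Depth limits the Trdc class of tumors, with 19 to 60 barcodes per library. The causes were not tested.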
